A study of Mus musculus with 7 samples.

Results

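The genes described here encode the MYC, MAX and MXD network of transcription factors, taken as the 9 rows of the count table whose Ensembl identifier carries the symbol Myc, Bmyc, Max, Mxd1, Mxd3, Mxd4, Mxi1, Mnt or Mlx, out of 51138 genes in all. RNA was sequenced from regulatory T cells (Tregs), the Foxp3-expressing T cells that restrain immune responses, which were sorted from spleens of RFP-FoxP3+ BL6 mice (strain given as C57/BL6), a line in which Foxp3 is reported by a red fluorescent protein. The treated group received 20 ug of IL-2/CD25 (FP), which joins interleukin-2 to CD25, the receptor subunit that it binds (4 samples), and the control group received 100 uL of PBS (3 samples). Both groups were taken 72 h after the injection. Age, sex and pooling of mice are not given in the sources used here, and the replicates are listed as separate samples without a statement that each came from its own mouse, so that a p value here rests on sample-to-sample spread that may be technical.

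MYC binds DNA as a pair with MAX and activates genes of growth, ribosome production, metabolism and cell division. MAX also pairs with the MXD proteins (MXD1, MXD3, MXD4 and MXI1) and with MNT, which recruit SIN3 corepressors to the same E-box sites, so that the partner bound to MAX decides whether a site is activated or repressed. MLX is a MAX-like protein that pairs with the glucose-sensing factors MondoA (gene Mlxip) and ChREBP (gene Mlxipl), and in part with MXD and MNT proteins. In T cells MYC is induced by antigen and by interleukin-2 and drives the metabolic switch of dividing cells, while Mxd4 is typical of resting cells and Mxd3 of cells in S phase.

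Total counts per library ran from 9956509 to 13429878. Il2ra, which encodes the receptor chain CD25, and Foxp3 were expressed in all 7 libraries, with means of 602 and 491 CPM (the count relative to library size, which was scaled by the trimmed mean of M values, TMM) after PBS and 1938 and 540 CPM after FP. FP replicate 4 stood apart in cell division: its summed level of 8 genes of dividing cells was 1659 CPM, against 2842 to 3164 CPM in the other FP libraries and 92.4 to 129 CPM after PBS. Markers of monocytes and macrophages moved with the groups. All 15 of the 16 markers that could be tested were lower after FP, and their summed level was 828 to 2074 CPM after PBS and 34.0 to 167 CPM after FP, with Cd14 at 0 in FP replicate 1 and Fcgr3 at 0 in FP replicate 3. Of the sparser markers, both tested dendritic cell genes (Itgax and Zbtb46), the neutrophil gene Csf3r and the NK cell gene Eomes were also lower after FP. Of 6 tested B cell genes Ighm and Cd79b were higher and 4 did not pass. The median log2 fold change of these 6 was -0.75. At an unadjusted p under 0.05 in edgeR there were 2 higher and 2 lower. The part of these cells in the results below was not tested, and in bulk RNA fewer cells of a type and less RNA per cell cannot be told apart.

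E-boxes are the sites this network binds, and several members carry one in their own promoter. The hexamer CACGTG, which reads the same on both strands, was searched in RefSeq promoter windows (GRCm38.p6, 250 bases before to 50 after the start site). Of the 9 members 8 had a window, and 4 of these held the hexamer, compared with 8.09% of all 27025 genes with a window. The 4 stretches are shown 5′ to 3′ on the gene's strand with the E-box in capitals, because they belong to the common partners Max and Mlx and to the repressors Mnt and Mxd4. They span chr12:76962219-76962278 (minus strand, Max), chr11:101087223-101087282 (plus, Mlx), chr11:74830774-74830833 (plus, Mnt) and chr5:34187897-34187956 (minus, Mxd4).
Max: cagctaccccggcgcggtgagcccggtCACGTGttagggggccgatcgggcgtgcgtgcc
Mlx: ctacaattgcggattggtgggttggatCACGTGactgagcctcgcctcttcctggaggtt
Mnt: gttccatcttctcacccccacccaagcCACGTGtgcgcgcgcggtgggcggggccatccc
Mxd4: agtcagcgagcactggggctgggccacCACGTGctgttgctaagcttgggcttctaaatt
The E-box of Max begins 3 bases before the start site, that of Mlx 40, that of Mnt 123 and that of Mxd4 219. In the windows of Mxd1, Mxd3, Mxi1 and Bmyc these letters were not found. A match describes the sequence and does not show binding, and the 4 genes differed in their response to FP as described below.

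All 9 members passed the filter on low counts. In edgeR's quasi-likelihood test 3 rose after FP (Mxd1, Mxd3 and Mlx), 2 fell (Mxd4 and Bmyc) and 4 did not pass (Myc, Max, Mnt and Mxi1). The 5 that passed were 55.6% of the members, against 39.5% of all 15954 genes tested (21% higher and 18.5% lower). The median log2 fold change was 0.13 over the members and -0.05 over all genes. CPM of the FP and PBS libraries did not overlap for the same 5 members, and did not overlap for 46.7% of all genes. Other scalings moved the median of all genes by -0.20 for upper-quartile factors and by -0.26 for library size alone. These 2 scalings moved the share of called genes that were higher from 53.2% to 33.2% and 28.6%. DESeq2 size factors moved the median by 0.02 and gave 55.6% higher. Changes under the first 2 scalings are to be read against their shifts.

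**Figure D1:**
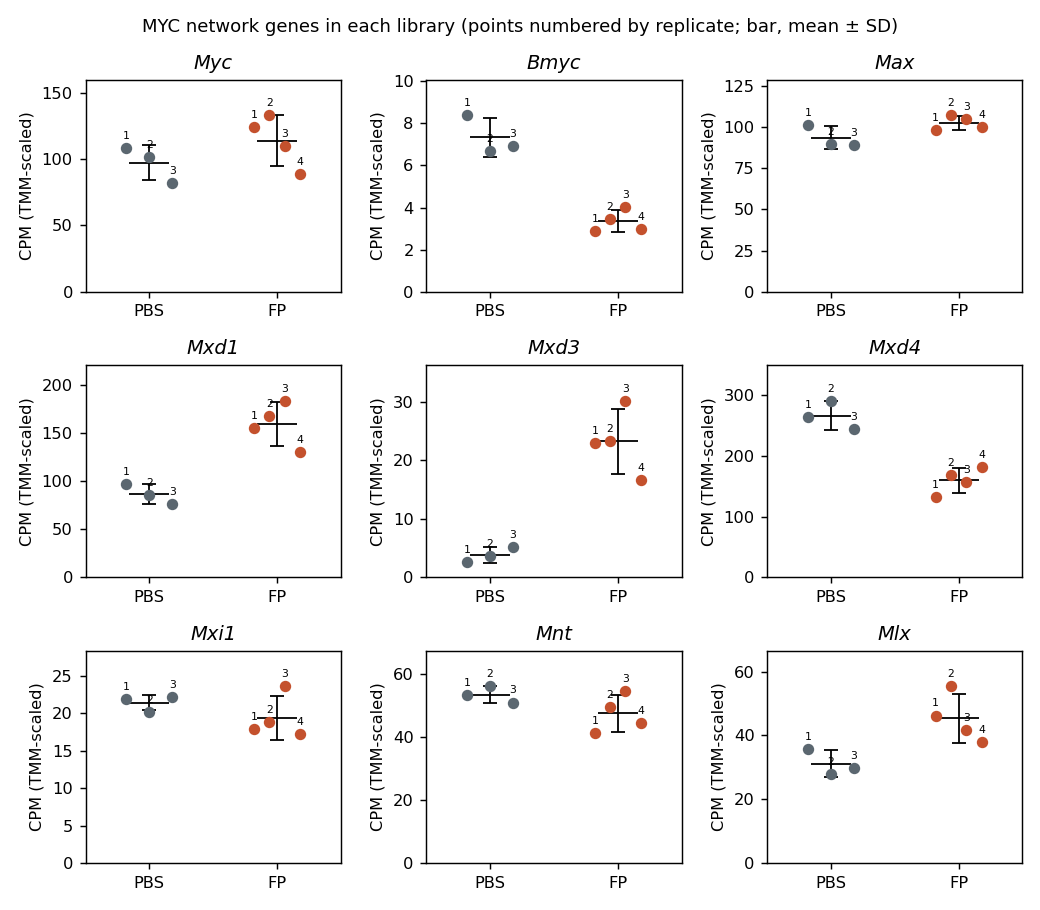
TMM-scaled CPM (y axis, from 0) of the 9 network genes in the PBS and FP libraries (x axis). Points are libraries numbered by replicate and bars are the mean ± SD. Mxd1, Mxd3 and Mlx lie higher in all 4 FP libraries than in any PBS library, Mxd4 and Bmyc lie lower, and the groups overlap for Myc, Max, Mxi1 and Mnt.

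Myc (ENSMUSG00000022346.15, GRCm38 chromosome 15, 61985391 to 61990374, plus strand), the activator of the network, measured 108, 102 and 82.3 CPM in PBS replicates 1 to 3 and 124, 133, 110 and 88.9 CPM in FP replicates 1 to 4. FP replicate 4 lay below PBS replicates 1 and 2, while the other FP libraries lay above each PBS library. The means were 97.5 ± 13.5 CPM after PBS (SD, n = 3) and 114 ± 19.4 CPM after FP (SD, n = 4). The log2 fold change was 0.23 (SE 0.14, 95% interval -0.10 to 0.55) and did not pass edgeR's test (adjusted p = 0.242). Without FP replicate 4 it passed (0.33, adjusted p = 0.0394), and with library size alone it turned to -0.06. A rise of Myc mRNA beyond 0.55 on the log2 scale lies outside the interval.

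Bmyc (ENSMUSG00000049086.8, chromosome 2, 25706739 to 25707721, plus strand) encodes a short relative of MYC that lacks the DNA-binding region. It measured 8.39, 6.67 and 6.92 CPM after PBS and 2.90, 3.46, 4.03 and 2.995 CPM after FP. Every FP library lay below every PBS library. In counts this was 79 to 95 reads per PBS library and 27 to 44 per FP library. Bmyc fell by 1.13 on the log2 scale (SE 0.20, edgeR adjusted p = 0.00176). It shares 617 exonic bases with A230005M16Rik, an antisense gene with 0.831 CPM after PBS and 0.274 CPM after FP, and reads in these bases cannot be assigned without a known strand setting. None of its 50-base stretches occurs in a transcript of another gene, Myc included.

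Max (ENSMUSG00000059436.13, chromosome 12, 76937269 to 76962201, minus strand), the partner shared by MYC, MXD and MNT proteins, measured 102, 89.8 and 89.2 CPM after PBS and 98.3, 107, 105 and 100.0 CPM after FP. The groups overlapped, since PBS replicate 1 lay above 2 of the FP libraries. Its log2 fold change was 0.13 (SE 0.08, 95% interval -0.05 to 0.32) and did not pass (edgeR adjusted p = 0.234). The sign of Max turned under the scalings by upper quartile (-0.07) and by library size (-0.13).

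Among the MXD repressors the changes ran in both directions. Mxd4 (ENSMUSG00000037235.13, chromosome 5, 34173883 to 34187720, minus strand), the MXD gene of resting cells, measured 264, 291 and 244 CPM after PBS and 133, 169, 157 and 182 CPM after FP. Each FP library lay below each PBS library, and FP replicate 4, the library with the lowest level of division genes in its group, was the highest of the FP libraries. Other libraries did not follow this order. FP replicate 2 had the highest division sum, yet its Mxd4 lay above that of FP replicates 1 and 3. PBS replicate 3 had both the lowest division sum and the lowest Mxd4 of the PBS libraries. Mxd4 fell by 0.73 on the log2 scale (SE 0.12, edgeR adjusted p = 0.000793).

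Mxd1 (ENSMUSG00000001156.9, chromosome 6, 86647042 to 86669161, minus strand), the founding member of the MXD family, which is known from cells that leave the cycle and differentiate, moved the other way. It measured 97.3, 86.0 and 76.5 CPM after PBS and 156, 168, 184 and 130 CPM after FP. The groups did not overlap, and FP replicate 4 was the lowest of the FP libraries. Mxd1 rose 1.84-fold (log2 fold change 0.88, SE 0.13, edgeR adjusted p = 0.000533). Gm44292, a gene model that overlaps Mxd1 on the same strand without sharing an exon, rose by 0.79 (edgeR adjusted p = 0.00769).

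Mxd3 (ENSMUSG00000021485.13, chromosome 13, 55325168 to 55329823, minus strand), the MXD gene of proliferating cells, showed the largest fold change of the 9 members. It measured 2.56, 3.59 and 5.25 CPM after PBS and 23.0, 23.4, 30.2 and 16.6 CPM after FP. Counts were 29, 49 and 60 in the PBS libraries and 214 to 330 in the FP libraries, so that the lowest FP library held more than 3 times the CPM of the highest PBS library. Mxd3 rose 6.11-fold (log2 fold change 2.61, SE 0.27, edgeR adjusted p = 7.71e-05). Its exons share 105 bases with those of Prelid1 on the opposite strand, which measured 72.5 CPM after PBS and 161 CPM after FP (log2 fold change 1.15, adjusted p = 0.000176), and without a known strand setting reads in that stretch cannot be assigned. The summed division genes differed between the groups in the same direction as Mxd3, and FP replicate 4 was the lowest FP library for both. Within the groups the order was not shared: PBS replicate 3 had the highest Mxd3 and the lowest division sum (92.4 CPM) of the PBS libraries, and the highest FP library was replicate 3 for Mxd3 and replicate 2 for the division sum.

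The other MAX partners with a repressive role did not pass. Mxi1 (ENSMUSG00000025025.13, chromosome 19, 53310518 to 53375810, plus strand), also called MXD2, measured 21.9, 20.2 and 22.2 CPM after PBS and 17.8, 18.8, 23.6 and 17.2 CPM after FP. Its log2 fold change was -0.15 (SE 0.14, 95% interval -0.46 to 0.16, edgeR adjusted p = 0.431). Mnt (ENSMUSG00000000282.12, chromosome 11, 74830920 to 74845725, plus strand), the broadly expressed MAX partner that balances MYC, measured 53.4, 56.2 and 51.0 CPM after PBS and 41.4, 49.5, 54.8 and 44.6 CPM after FP. FP replicate 3 reached into the range of PBS, and the other FP libraries lay below it. The log2 fold change of Mnt was -0.17 (SE 0.11, 95% interval -0.42 to 0.08, edgeR adjusted p = 0.253). Under the upper-quartile and library-size scalings Mnt passed as lower (-0.37 and -0.43, adjusted p = 0.0197 and 0.0250).

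Mlx (ENSMUSG00000017801.15, chromosome 11, 101087277 to 101092207, plus strand), the MAX-like partner of MondoA, measured 35.8, 27.9 and 29.8 CPM after PBS and 46.2, 55.4, 41.6 and 37.9 CPM after FP. The groups did not overlap, but FP replicate 4 and PBS replicate 1 lay close together. Mlx rose 1.45-fold (log2 fold change 0.54, SE 0.15, edgeR adjusted p = 0.0153). The call was lost without PBS replicate 2 (adjusted p = 0.0756), without PBS replicate 3 (0.0669) and when only library size was used for scaling (0.26, adjusted p = 0.101). Its exons share 385 bases with those of Psmc3ip on the opposite strand (4.95 CPM after PBS and 7.22 CPM after FP), to which the same limit applies.

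**Figure D2:**
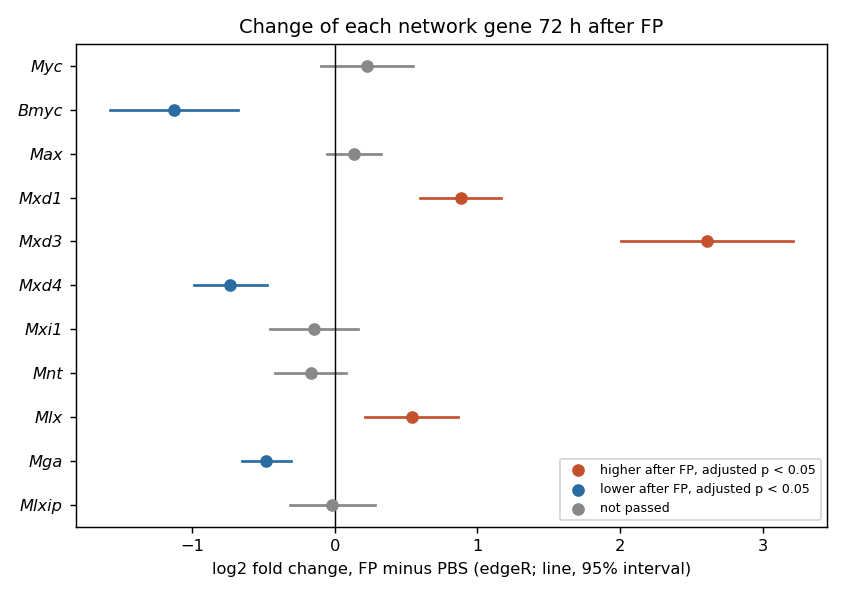
Log2 fold change (x axis, FP minus PBS, edgeR) of the 9 network genes and of Mga and Mlxip (rows). Points are estimates, lines are 95% intervals, and colours mark genes past an adjusted p of 0.05. The intervals of Mxd1, Mxd3 and Mlx lie above 0 and those of Mxd4, Bmyc and Mga below it, while those of Myc, Max, Mnt, Mxi1 and Mlxip include 0.

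Levels can be compared between genes only per length, as CPM per kilobase of annotated exon. After PBS Myc (35.9) and Mxd4 (31.4) were highest and overlapped each other. Max (26.0), Mlx (15.6) and then Mxd1 (12.2) and Mnt (11.6) followed, of which only Mxd1 and Mnt overlapped. Bmyc (7.45), Mxi1 (3.14) and Mxd3 (1.61) were lowest, and the ranges of these neighbours did not overlap. After FP the order changed. Myc (42.0) was above Max (28.5), which overlapped Mlx (22.7). Mlx overlapped Mxd1 (22.6), and Mxd1 overlapped Mxd4 (18.9). Mnt (10.3) and Mxd3 (9.83) overlapped, as did Bmyc (3.41) and Mxi1 (2.84). Mxd3 thus went from the last place of the 9 to the seventh, and Mxd4 from the second to the fifth. These lengths count every annotated exon of a gene, so that a gene expressed only as a short isoform is understated.

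**Figure D3:**
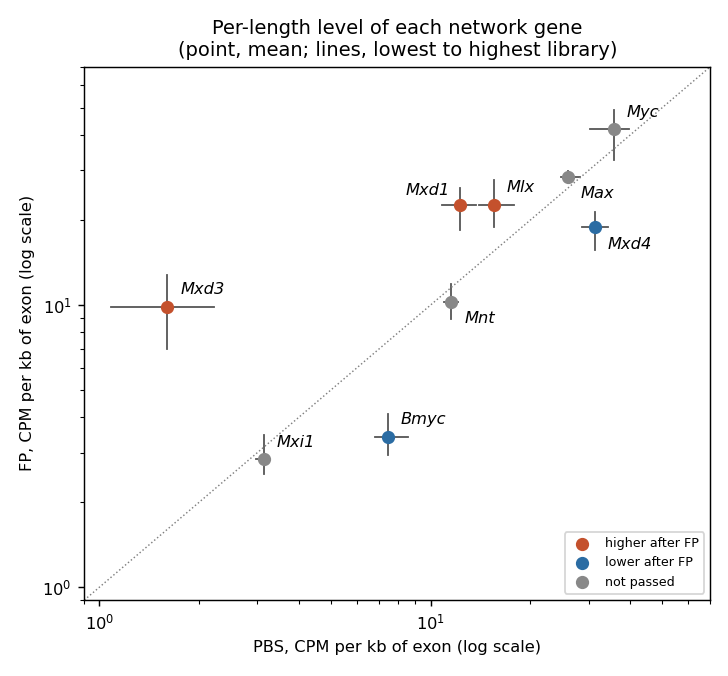
Mean CPM per kilobase of exon of each network gene after PBS (x axis, log scale) and after FP (y axis, log scale). Lines run from the lowest to the highest library and the dotted diagonal marks equal levels. Mxd3 stands far above the diagonal at 1.61 after PBS and 9.83 after FP, and Mxd4 and Bmyc lie below it.

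The summed per-length level of the 5 MAX-binding repressor genes (Mxd1, Mxd3, Mxd4, Mxi1 and Mnt) overlapped between the groups, at 56.0 to 63.1 CPM per kilobase after PBS and 59.0 to 72.6 after FP. Its make-up did not overlap for 4 of the 5, where CPM of single genes did not overlap for 46.7% of all genes tested. Mxd4 held 51.3 to 54.4% of the sum in the PBS libraries and 25.5 to 36.3% in the FP libraries. Mxd1 held 19.3 to 22.7% after PBS and 31.2 to 37.4% after FP, and Mxd3 held 1.78 to 3.96% and 11.9 to 17.6%. The share of Mnt was 19.0 to 19.7% after PBS and 15.2 to 16.3% after FP, although its CPM overlapped between the groups. Shares of a sum depend on each other, so a share can move without a change of its own gene. Mxi1 held 4.70 to 5.80% after PBS and 4.12 to 4.77% after FP, which overlap. FP replicate 4 had the largest share of Mxd4 and the smallest share of Mxd1 and Mxd3 among the FP libraries, and still lay outside the PBS range for each. The per-length ratio of Myc to this sum was 0.541 to 0.656 after PBS and 0.554 to 0.777 after FP, and the ratio of Myc to Max was 1.222 to 1.50 and 1.18 to 1.68. Both ratios overlapped between the groups. These sums were put together with the single genes' results known and are a description with no test.

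**Figure D4:**
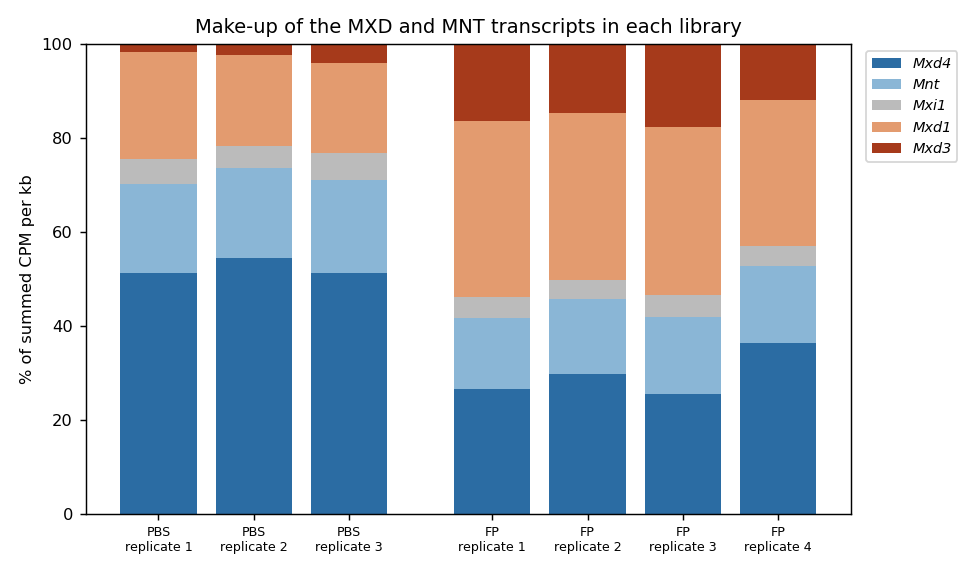
Percent (y axis) of the summed CPM per kilobase of Mxd4, Mnt, Mxi1, Mxd1 and Mxd3 held by each gene in the 3 PBS and 4 FP libraries (x axis). Mxd4 holds 51.3 to 54.4% in the PBS bars and 25.5 to 36.3% in the FP bars, where Mxd1 and Mxd3 take up larger parts.

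The genes whose profiles over the 7 libraries were closest to those of the called members were found by the root-mean-square difference of log2 CPM, after centring each gene on its mean. For Mxd1 these were Impa2 and Pola2 (differences of 0.06 and 0.06). For Mxd3 they were Rad54l and Zwilch (0.14 and 0.16), and for Mxd4 Zfp12 and Marveld1 (0.04 and 0.05). For Mlx they were Snx4 and Trac (0.04 and 0.04), and for Bmyc Jrk and Lancl1 (0.13 and 0.13). The search covered 10884 genes with a mean of at least 5 CPM, and since the 7 libraries fall into 2 groups, a like fold change alone brings profiles close.

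Of the 5 other factors of the network, 2 were expressed well enough to be tested. Mga, which encodes a large MAX partner with a T-box that represses germline and meiotic genes, measured 293, 286 and 300 CPM after PBS and 211, 216, 200 and 213 CPM after FP. The groups were far apart compared with their spread, and Mga fell by 0.48 on the log2 scale (SE 0.08, edgeR adjusted p = 0.000912). Mlxip, which encodes the MLX partner MondoA, measured 142 ± 13.4 CPM after PBS (SD, n = 3) and 141 ± 24.8 CPM after FP (SD, n = 4; log2 fold change -0.02, edgeR adjusted p = 0.931, with either sign under other settings). Mycn had 0 counts in the 3 PBS libraries and 2 to 4 in the FP libraries. A count of 0 allows up to 3 counts, so that no fold is given. Mycl and Mlxipl had at most 3 counts in any library.

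Both genes listed as targets of MondoA and MLX fell, while Mlx rose and Mlxip did not pass. Of all genes tested, 18.5% fell. Txnip, an inhibitor of thioredoxin and of glucose uptake, measured 521, 430 and 437 CPM after PBS and 297, 382, 335 and 324 CPM after FP. Its log2 fold change was -0.47 (SE 0.11, edgeR adjusted p = 0.00780). The related arrestin gene Arrdc4 measured 16.9, 15.2 and 18.3 CPM after PBS and 7.95, 14.4, 10.4 and 8.42 CPM after FP, a log2 fold change of -0.70 (SE 0.20, edgeR adjusted p = 0.0203), and lost its call without PBS replicate 3 (-0.64, adjusted p = 0.0854). For both genes the groups did not overlap, as for 46.7% of all genes tested. The promoter window of Arrdc4 holds an E-box that begins 193 bases before the start site, and that of Txnip does not hold these letters. For this reason the Arrdc4 stretch on chr7:68749399-68749458 (minus strand) is shown, with the E-box in capitals.
Arrdc4: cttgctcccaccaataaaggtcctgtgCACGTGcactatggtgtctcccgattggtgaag

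Among 23 cofactors and corepressors, edgeR called 5 higher and 0 lower, leaving 18 that did not pass. This is 21.7% called, against 39.5% of all genes, and the median log2 fold change was 0.12. At an unadjusted p under 0.05 there were 6 higher and 1 lower. In DESeq2 the counts were also 5 and 0, and in limma-voom 4 and 1. The 5 were Actl6a (0.67), a subunit of chromatin remodelling and acetyltransferase complexes that bind MYC, the ATPase gene Ruvbl2 (0.63), the deacetylase gene Hdac1 (0.53), the remodeller Smarca4 (0.39) and the corepressor Sin3b (0.32), which was named with its value known. Smarca4 did not pass under the upper-quartile scaling, Smarca4, Hdac1 and Ruvbl2 did not pass with library size alone, and Ruvbl2 did not pass without PBS replicate 3. The list held 3 higher calls under the upper-quartile scaling, 1 with library size alone and 3 without PBS replicate 3. The losses in these settings therefore reached beyond the losses just named. With library size alone, at most 1 of Actl6a and Sin3b was called higher. With FP replicate 1, 2 or 3 or PBS replicate 2 left out, 4 higher calls remained. Sin3a, the other SIN3 gene through which MXD proteins repress, measured 151 ± 7.99 CPM after PBS (SD, n = 3) and 147 ± 10.9 CPM after FP (SD, n = 4). Sin3a, also named with its value known, had a log2 fold change of -0.04 (edgeR adjusted p = 0.752). Scaling by upper quartile and by library size called it lower (-0.24 and -0.31), and DESeq2 size factors did not (-0.02). The direction of this list depended on the scaling, with 3 higher and 8 lower for upper-quartile factors and 1 higher and 7 lower for library size alone. The number called was 8 without FP replicate 4 and 3 without PBS replicate 3.

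MYC protein turnover was covered by 14 genes, of which 13 were tested. Of these 4 were called higher and 1 lower, and 8 were not called (median 0.10). The share called was 38.5%, near the 39.5% of all genes. Cip2a, an inhibitor of the phosphatase PP2A that protects MYC from degradation, measured 5.65, 6.01 and 5.08 CPM after PBS and 71.3, 62.96, 52.2 and 41.7 CPM after FP. The groups were clearly separate, and Cip2a rose by 3.35 on the log2 scale (SE 0.20, edgeR adjusted p = 2.50e-06). The mitotic kinase gene Aurka rose by 2.77 (SE 0.23, edgeR adjusted p = 1.55e-05). Both belong to dividing cells as well. Fbxw7, the substrate receptor of the ubiquitin ligase that marks MYC for degradation, rose by 0.44 (edgeR adjusted p = 0.00411), but not with library size alone (0.17, adjusted p = 0.170). The ligase gene Huwe1, chosen after its value was seen, fell by 0.24 (edgeR adjusted p = 0.0482). Leaving out a library other than FP replicate 4 ended its call (adjusted p from 0.0602 to 0.194). Huwe1 was also not called lower with DESeq2 size factors, in DESeq2, with no filter on low counts or in a fit with a replicate block. The number called in this list was 3 without FP replicate 2, FP replicate 3, PBS replicate 2 or PBS replicate 3.

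Genes listed as induced by MYC were mostly higher or did not pass, whereas Myc itself did not pass. In the list of growth and the nucleolus 17 of 30 genes rose and 1 fell, while 12 were not called (median 0.46). Over all genes tested, 21% rose and 18.5% fell. The nuclear transport GTPase gene Ran rose by 1.55, the chromatin protein gene Ptma by 1.32, the nucleoside kinase gene Nme1 by 1.31 and Pa2g4 by 0.91. Npm1, the abundant nucleolar chaperone, was chosen after its values were seen. It measured 393, 317 and 295 CPM after PBS and 945, 829, 494 and 395 CPM after FP, so that FP replicate 4 was nearly at the level of PBS replicate 1. The log2 fold change of Npm1 was 0.99 (SE 0.30, edgeR adjusted p = 0.0319), and it did not pass without FP replicate 2, PBS replicate 2 or PBS replicate 3 (adjusted p = 0.0869, 0.0907 and 0.111). Nucleolin (Ncl), also chosen after its values were seen, had FP replicate 4 (580 CPM) below PBS replicate 1 (600 CPM), with a log2 fold change of 0.66 (edgeR adjusted p = 0.0208), and did not pass without FP replicate 2, PBS replicate 2 or PBS replicate 3 or with library size alone. The gene that fell, Polr1b (-0.33, adjusted p = 0.0430), encodes a subunit of RNA polymerase I, was named with its value known, and did not pass without any single library except FP replicate 1. Polr1b was also not called lower with DESeq2 size factors, in DESeq2, with no filter on low counts or in a fit with a replicate block.

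The summed level of these 30 genes was 3405, 3055 and 2848 CPM in PBS replicates 1 to 3 and 6218, 5916, 4555 and 3696 CPM in FP replicates 1 to 4. The FP libraries lay above PBS, with FP replicate 4 the closest, as it was for Myc, where it lay within the PBS range. The number called in this list was 11 without FP replicate 2. It was 11 when PBS replicate 2 was left out and 7 when PBS replicate 3 was. Upper-quartile factors gave 12 higher and 1 lower (median 0.25), and library size alone gave 10 higher and 3 lower (median 0.17).

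In the metabolic list 12 of 24 genes rose and 1 fell, while 11 were not called (median 0.46). The share called was 54.2%, against 39.5% of all genes. The glycolytic genes Eno1 (1.48) and Pkm (1.23), the transferrin receptor gene Tfrc (1.28) and Mthfd2 (1.13), of mitochondrial one-carbon metabolism, rose. Tfrc measured 62.1, 51.8 and 56.0 CPM after PBS and 155, 161, 116 and 118 CPM after FP, with no overlap. Odc1, the polyamine enzyme gene that is a classical MYC target, and Cad, of pyrimidine synthesis, were chosen after their values were seen and rose by 0.67 and 0.55. Cad lost its call when PBS replicate 3 was left out (adjusted p = 0.0568) and under scaling by library size (0.0998). Ppargc1b, a coactivator of mitochondrial genes also chosen after its value was seen, fell by 0.92. The metabolic genes called fell in number to 8 when PBS replicate 3 was left out, and to 8 under scaling by library size.

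In the cell cycle list 8 of 10 genes rose and 1 fell, while 1 was not called (median 1.31), or 90% called against 39.5% of all genes. For all 10 the groups did not overlap, as for 46.7% of all genes. The activator genes E2f1 (3.15), E2f2 (1.96) and E2f3 (1.39) and the helicase gene Mcm7 (1.54) rose. Cdk4, the G1 kinase gene, was chosen after its values were seen and measured 64.5, 63.1 and 53.8 CPM after PBS and 111, 122, 103 and 82.2 CPM after FP, a log2 fold change of 0.79 (SE 0.13, edgeR adjusted p = 0.00128). It is shown because its promoter window holds 4 E-boxes. The part of the window shown, with the E-boxes in capitals, spans chr10:127063336-127063534 (plus strand).
Cdk4: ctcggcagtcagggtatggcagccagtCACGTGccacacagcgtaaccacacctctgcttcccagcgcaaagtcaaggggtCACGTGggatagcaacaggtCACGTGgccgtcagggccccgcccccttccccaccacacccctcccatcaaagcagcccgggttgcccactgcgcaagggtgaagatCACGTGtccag
Tert, the telomerase gene, was the gene that fell (-0.74, edgeR adjusted p = 0.0151). It was named with its value known and lost its call without PBS replicate 2 or PBS replicate 3 (adjusted p = 0.0572 and 0.0640). An E-box was found in 10 of the 26 growth and nucleolus genes with a promoter window (38.5%), 3 of 19 metabolic genes (15.8%) and 2 of 7 cell cycle genes (28.6%). The share of all genes with a window was 8.09%. Among the other lists it was found in 2 of 20 cofactors, 1 of 12 turnover genes, 0 of 6 repressed genes and 1 of 8 genes of dividing cells. It was also in 1 of 5 other network factors and 1 of 2 MondoA and MLX targets.

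In the list of genes repressed by MYC 3 of 8 rose and 2 fell, while 3 were not called (median 0.37), or 62.5% called against 39.5% of all genes. With 1 FP library left out, 7 of the 8 were tested. The median was then -0.058 without FP replicate 2 and 0.077 to 0.15 without another FP library. With 1 PBS library left out, all 8 were tested and the median ran from 0.33 to 0.43. Those that rose were the kinase inhibitor genes Cdkn1a and Cdkn2b and the stress-induced gene Ndrg1. Ndrg1 measured 15.9, 13.9 and 11.8 CPM after PBS and 85.9, 93.5, 73.0 and 64.6 CPM after FP, a log2 fold change of 2.51 (SE 0.16, edgeR adjusted p = 3.14e-06). Cdkn2b had 0 to 3 counts in a PBS library and 2.56 to 5.77 CPM after FP (edgeR adjusted p = 0.000176). The gene of the myeloid factor Cebpa fell by 1.33 (edgeR adjusted p = 0.00340) along with the macrophage markers given above, whose part in this was not tested. The kinase inhibitor gene Cdkn1b, chosen after its value was seen, fell by 0.30 (edgeR adjusted p = 0.0318) and did not pass in DESeq2 (adjusted p = 0.0872) or when FP replicate 1 or 3 or any 1 PBS library was left out. With no filter on low counts only 1 gene of this list was called lower, against 2 in the main comparison.

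**Figure D5:**
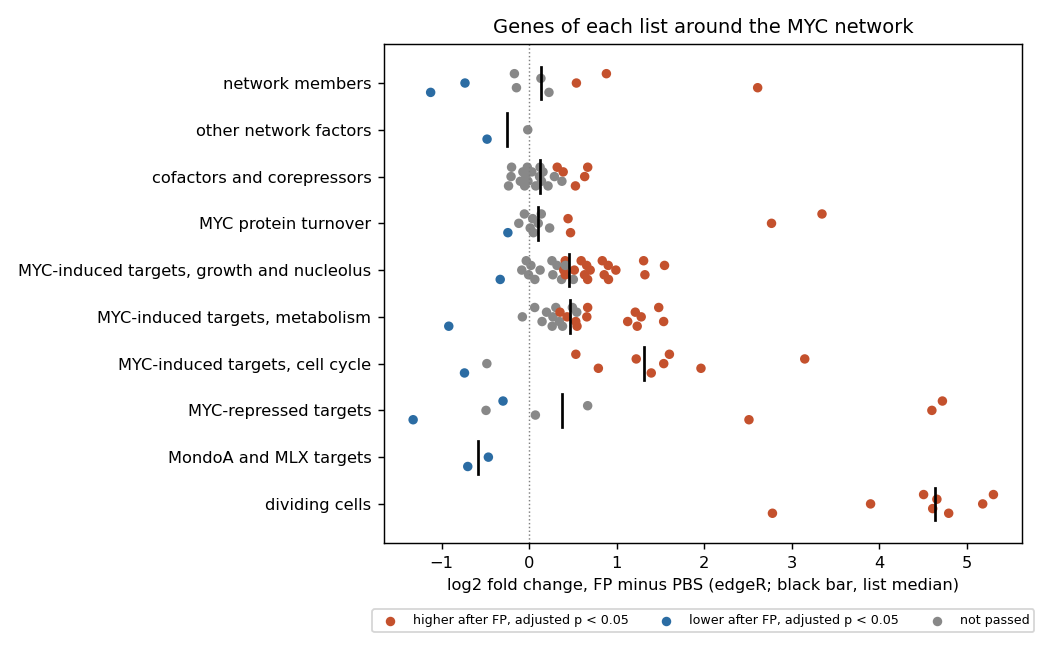
Log2 fold change (x axis, FP minus PBS, edgeR) of each tested gene (points) in the network and the lists around it (rows), with list medians as black bars and colours for genes past an adjusted p of 0.05. The members scatter on both sides of 0 (median 0.13), the MYC-induced lists lie mostly to the right (medians 0.46, 0.46 and 1.31), and the genes of dividing cells lie farthest right (median 4.63).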

How the data were processed

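Per the labels' protocols, RNA was isolated with TRIzol and a column and libraries were made from 25 ng of total RNA after removal of ribosomal RNA. Per the series' design text and the submitters' processing notes, the authors mapped reads to GRCm38 with STAR (2.5.0 or 2.5.0b), used featureCounts 1.5.0 with GENCODE M13 genes and called genes with DESeq2 (false discovery rate 0.05). The deposited table holds raw counts, not normalized. The sources used here do not give the strand setting or the treatment of multiply mapping reads.

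The comparison of FP with PBS used edgeR 4.0.16 under R 4.3.3 (filterByExpr, TMM factors, robust quasi-likelihood test, Benjamini-Hochberg adjustment over all genes tested, threshold 0.05). Standard errors came from the F statistic. Symbols were found for 50376 of 51138 identifiers. Coordinates, exon lengths and overlaps are from GENCODE M21 on GRCm38, and promoter sequences are from RefSeq (GRCm38.p6). A count of 0 in a library allows 3 counts, or 0.214 to 0.322 CPM; such floors cover counting error only. The test was tried on simulated counts. FP and PBS libraries with the same number in their sample titles were checked for pairing. The check could not decide this, and the main comparison used no pairing.

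Members and lists were chosen with earlier results of these data known. Named genes were all members, the 4 called genes of smallest p in each pathway list, all genes of lists of 5 or fewer, the 2 most abundant markers of each cell type, and the 2 nearest profiles of each called member; others are marked, and 1 gene named by this rule is not reported here. Alternatives were other scalings, tests and filters, each library left out and a replicate block.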

Additional observations from a re-analysis of the deposited data

Results flagged for a closer look

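Among the 4 FP libraries, a value far from the other 3 was found for 2 of the 82 genes checked, and chance alone gives about 1 in 20. Mcm7 was at 120 CPM in FP replicate 4, against 190 to 194 CPM in the other FP libraries. Jrk, one of the genes closest in profile to Bmyc, was at 12.6 CPM in FP replicate 3, against 8.06 to 8.79 CPM. No network member was set apart in this way.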

How the results depend on the processing

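Mxd1, Mxd3, Mxd4 and Bmyc kept their direction and passed under all 15 alternatives, with log2 fold changes of 0.61 to 0.998, 2.33 to 2.90, -0.99 to -0.65 and -1.39 to -0.99. Mlx passed under 12 of 15 (0.26 to 0.67). The members called numbered 4 to 6 with 1 library left out. Signs turned for Myc with library size alone (-0.056), for Max under the scalings by upper quartile (-0.070) and by library size (-0.13), and for Foxp3 likewise (-0.068 and -0.13). In the replicate block Myc passed as higher (0.33, adjusted p = 0.00762 in edgeR), as it did without FP replicate 4, a library the block also leaves out, and signs turned for Sin3a (0.012) and Cd8a (0.029). Mlxip turned with DESeq2 size factors (0.0047), in DESeq2 (0.023) and with no filter (0.0054). With 1 library left out Mlxip ran from -0.11 to 0.080, Cd8a from -0.28 to 0.038 and Sin3a from -0.071 to 0.030. The cause was not tested.

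With 1 library left out, all genes called ran from 4088 to 7277, cofactors and corepressors from 3 to 8, turnover genes from 3 to 5, growth and nucleolus genes from 7 to 22, metabolic genes from 8 to 19 and MondoA and MLX targets from 1 to 2. Scaling by upper quartiles gave 11 called cofactors and library size alone gave 8, along with 8 metabolic genes. DESeq2 and the fit without a filter each called 2 other network factors and tested 4 and 5 of them, against 2 tested in the edgeR comparison. A replicate block on libraries 1 to 3 of each group gave 9 cofactors, 20 metabolic genes, and 7839 genes in all. The check of pairing gave correlations of same-numbered deviations of 0.22, 0.07 and 0.10. Of the other pairs, PBS replicate 3 was closest to FP replicate 4 (0.39), and PBS replicate 1 with FP replicate 2 reached 0.21. The replicate numbers are those of the sample titles. In the submitters' column names the libraries are numbered otherwise, and no number is shared between FP and PBS. The replicate block therefore rests on the titles alone. With so few libraries per group these correlations cannot decide whether same-numbered libraries share a batch. Bmyc and Mxd3, with under 100 reads in each PBS library, have the widest intervals of the members.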
